A study of Homo sapiens with 6 samples.

Results

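Histone genes, those made for newly replicated DNA and those of the variants, were followed in HaCaT, a human keratinocyte line that was immortalised in culture and is labelled wild type. The 3 IFN-beta libraries came from cells kept for 24 h in serum-free high-glucose DMEM with IFN-beta, a type I interferon, at 160 ng/mL. The 3 control libraries came from cells handled in parallel for 24 h in that medium with no IFN-beta. Nothing in the labels says that the 3 libraries of a group came from separate cultures, so each p-value measures only the spread between libraries, which may be technical. Members were chosen by gene symbol alone, as rows named like H1-2, H2AC6, H2BC12, H3C10 or H4-16. The rule found 88 of the 60671 genes in the deposited table. Of these, 71 were put in the replication-dependent class, 15 in the variant class, and 2 (H3C5P and H3C9P) are pseudogenes.

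Nucleosomes wrap DNA around a core of the histones H2A, H2B, H3 and H4, and H1 binds the linker DNA between them. Replication-dependent histone genes lie in clusters, are transcribed mainly in S phase, and give mRNAs that end in a conserved stem-loop bound by SLBP in place of a poly(A) tail. Some of these genes are known to give polyadenylated mRNAs as well, in particular in cells that leave the cycle and differentiate. Variant genes such as those of H3.3 and H2A.Z lie alone, give polyadenylated mRNAs and are expressed through the cycle. Neither the selection of the RNA (by poly(A) tail or by removal of rRNA) nor the use of strand in counting is stated in the sources used here. A level below therefore says how much of a gene's RNA was sampled by these libraries, which need not be its share in the cell.

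The 3′ end that sets the replication-dependent class apart was searched for as GG, 2 bases of any kind, CTT, 1 of any kind, T, 1 of any kind, AG, 2 of any kind and CC, on the sense strand of the GENCODE release 29 transcripts (build GRCh38). These letters were in 388 of 206694 transcripts (0.188%) and in 185 genes, 33 of them members. They are printed for 3 called genes of the H2A and H2B families, for an H4 gene, for H2AC11, which moved the other way, and for H2AX, a variant gene whose transcript also holds them. The capitals mark the stem-loop letters, with 5 bases on each side.
H2AW (chromosome 1): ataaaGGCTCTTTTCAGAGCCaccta
H2BU1 (chromosome 1): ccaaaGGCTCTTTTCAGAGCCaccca
H2BC4 (chromosome 6): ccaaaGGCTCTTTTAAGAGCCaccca
H4-16 (chromosome 12): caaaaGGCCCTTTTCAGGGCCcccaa
H2AC11 (chromosome 6): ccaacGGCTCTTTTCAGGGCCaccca
H2AX (chromosome 11): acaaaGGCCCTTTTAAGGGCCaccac
The H4-16 and H2AX stems differ in letters from those of H2AW, H2BU1 and H2BC4, and the H2AC11 stem has the left arm of H2AW and a different right arm. Many other members have models that stop at the stop codon, so a missing match there is a limit of the model.

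Many H2A and H2B genes start head to head and share the promoter between them. H2AW and H2BU1 start with 229 bases between them on chromosome 1, and H2AC11 and H2BC11 start with 247 bases between them on chromosome 6. Their promoters are printed because the first pair held the largest rise of the replication-dependent class and the second held genes that moved in opposite directions. Each window runs from 250 bases before the start to 50 after it, on the strand of the named gene, from RefSeq (build GRCh38.p14), whose table held 78 of the 88 members. Capitals mark the CCAAT box, the letters TATAAA of the TATA box, and interferon-response letters (2 copies of GAAA with 2 bases of any kind between them), all searched on both strands.
H2AW (RefSeq symbol H2AC25, minus strand, chr1:228457824-228458123): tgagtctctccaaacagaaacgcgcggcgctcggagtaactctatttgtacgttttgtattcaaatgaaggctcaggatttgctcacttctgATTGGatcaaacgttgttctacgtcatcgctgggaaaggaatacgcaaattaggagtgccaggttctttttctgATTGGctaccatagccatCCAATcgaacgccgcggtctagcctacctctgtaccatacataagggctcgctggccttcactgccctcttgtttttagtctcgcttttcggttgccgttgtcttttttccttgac
H2BC11 (minus strand, chr6:27132746-27133045): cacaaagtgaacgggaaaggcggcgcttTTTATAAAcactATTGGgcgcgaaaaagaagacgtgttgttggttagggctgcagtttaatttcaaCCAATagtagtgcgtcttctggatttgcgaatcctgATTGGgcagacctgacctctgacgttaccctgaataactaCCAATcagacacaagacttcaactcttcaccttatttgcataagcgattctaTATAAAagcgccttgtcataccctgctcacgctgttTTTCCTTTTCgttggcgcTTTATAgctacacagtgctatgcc
The H2AW window holds 3 CCAAT matches and neither of the other motifs. The H2BC11 window holds 4 CCAAT matches, 4 TATAAA matches (some of them overlapping) and 1 match to the interferon-response letters, 8 bases past the start on the opposite strand. Most of the same bases make up the H2AC11 window, and that match lies outside it. A match is a description of letters and not a binding site.

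Of the 88 members, 42 reached a mean of 0.5 FPKM (fragments scaled by gene length and by library depth) over the 6 libraries and were tested, 34 replication-dependent and 8 variant genes. Tests ran over all 15163 genes at that level, as limma's two-sided test on log2(FPKM + 0.5), with a Benjamini-Hochberg adjusted p under 0.05 as the call. The log2 changes below are IFN-beta minus control on that scale, and for genes at low levels they come out smaller than the ratio of FPKM. Errors of levels are SD (n = 3 per group).

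Replication-dependent genes were mostly higher with IFN-beta. Of the 34 tested, 22 rose, 1 fell and 11 did not pass, where 22.5% of all tested genes rose and 19.9% fell (42.4% in either direction). In RNA from a whole culture, a change in every cell and a larger change in a part of the cells cannot be told apart. A called rise of at least 2-fold was seen in 11 of the 34, against 2.96% of all tested genes. In 23 of the 34 the lowest IFN-beta library lay above the highest control library, against 28.6% of all tested genes, and in 1 it was the reverse, against 25.4%. Their median log2 change was 0.66, with a range from -0.82 to 2.18, beside a median of 0.01 over all tested genes. Only 2 of the tested members, H2BC7 and H4C15, owed their place to the IFN-beta group alone, with a control mean under 0.5 FPKM. Both are counted among the 22, and H4C15 also among the 11, though the filter favoured a rise in them. A further 5 untested members also passed that level in the IFN-beta group alone.

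Variant genes moved in both directions. Of the 8 tested, 4 rose (H1-10, H2AJ and H3-3B among them), 3 fell (H2AZ1, H2AZ2 and H3-3A) and H2AX did not pass. Over all tested genes, 22.5% rose and 19.9% fell. The median log2 change of the 8 variant genes was 0.15. The 2 classes also differ in level: variant means over the 6 libraries reached 396 FPKM (H3-3B), while the highest replication-dependent mean was 56.9 FPKM (H2BC12).

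**Figure D1:**
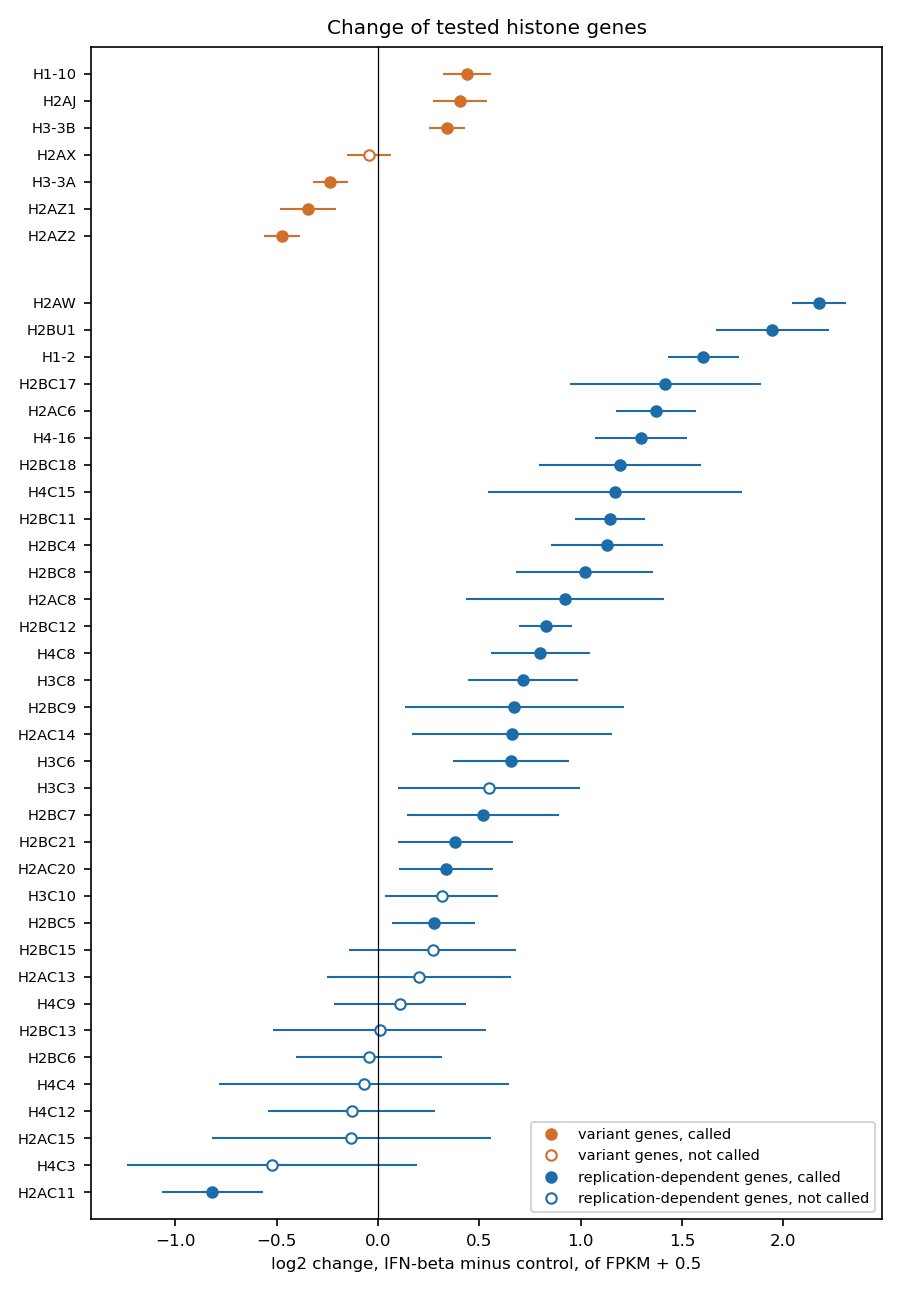
Log2 change (IFN-beta minus control, of FPKM + 0.5, x axis) of tested histone genes (y axis), variant genes above and replication-dependent genes below. Points are estimates, lines are 95% confidence intervals, filled points passed the test and open points did not; 22 filled replication-dependent points lie right of 0 and 1, H2AC11, lies left of it.

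Among H1 genes, H1-2, which codes for a replication-dependent linker histone, had 51.7, 50.5 and 57.9 FPKM in the IFN-beta libraries, against 16.4, 16.1 and 19.2 FPKM in the control libraries. It was higher in every IFN-beta library, by a log2 change of 1.61 (SE 0.0777, adjusted p = 7.88e-07, limma). H1-10, a variant linker histone gene, had 82.1, 80.9 and 85.2 FPKM with IFN-beta, against 65.8, 59.0 and 58.1 FPKM in controls. Its log2 change was smaller, 0.44 (SE 0.0524, adjusted p = 0.000222, limma), and the groups did not overlap. Of its exonic bases, 22.9% are shared with H1-10-AS1 on the opposite strand, which itself averaged 5.70 ± 0.652 FPKM with IFN-beta and 3.47 ± 0.509 FPKM in controls, and the part of those reads in H1-10 was not tested. The next replication-dependent H1 gene by level, H1-4, lay under the minimum, with 6 to 16 reads with IFN-beta and 7 to 13 reads in controls.

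H2AW gave the largest log2 change of any tested histone gene. It lies at chr1:228456979-228457873 (minus strand, coordinates as deposited, build inferred to be GRCh38), in the small cluster on the long arm of chromosome 1, and codes for an H2A of the replication-dependent type. Its level was 61.5, 64.6 and 69.4 FPKM in the IFN-beta libraries, against 13.2, 14.3 and 14.5 FPKM in the control libraries. Every IFN-beta library stood more than 4-fold above every control library. The log2 change was 2.18 (SE 0.0586, adjusted p = 1.1e-08, limma), on 336 to 1900 reads per library. H2AW made up 11.6 ± 0.386% of the summed H2A FPKM with IFN-beta and 2.40 ± 0.0988% in controls.

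H2BU1, its head-to-head neighbour at chr1:228458107-228460470 (plus strand), codes for an H2B. It had 9.72, 11.7 and 9.03 FPKM in the IFN-beta libraries, against 2.22, 1.95 and 2.64 FPKM in the control libraries. The groups again stood well apart, with a log2 change of 1.95 (SE 0.122, adjusted p = 4.46e-06, limma). The third gene of that cluster, H3-4, is known as a testis gene and was not at a testable level.

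H2AC6, an H2A gene of the large cluster on chromosome 6, had 27.6, 30.6 and 27.7 FPKM with IFN-beta, against 9.60, 10.5 and 12.3 FPKM in controls. Its groups did not overlap, and the log2 change was 1.37 (SE 0.0867, adjusted p = 4.58e-06, limma). H2AC8 (log2 change 0.92) and H2AC14 (0.66) rose as well, as did H2AC20 (0.34) by less. H2AC13 and H2AC15 did not pass, with log2 changes of 0.20 and -0.13. The H2AC14 and H2AC13 models share most of their 50-base stretches with each other, so counting could have split their reads.

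H2AC11 was the only replication-dependent gene called lower. It lies at chr6:27133042-27135291 (plus strand) and codes for an H2A. It had 1.64, 1.30 and 1.61 FPKM in the IFN-beta libraries, against 3.11, 2.93 and 3.10 FPKM in the control libraries. All IFN-beta values lay below all control values, on 78 to 111 reads per library with IFN-beta and 180 to 207 reads in controls. The log2 change was -0.82 (SE 0.11, adjusted p = 0.000439, limma).

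Variant H2A genes summed to 456 ± 20.6 FPKM with IFN-beta and 550.4 ± 23.9 FPKM in controls, without overlap and opposite in direction to the replication-dependent H2A genes (107 ± 3.57 FPKM with IFN-beta and 35.0 ± 2.32 FPKM in controls). H2AZ1, the more abundant H2A.Z gene, had 213, 211 and 227 FPKM with IFN-beta, against 260.4, 265 and 304 FPKM in controls (log2 change -0.35, SE 0.0609, adjusted p = 0.00188, limma). H2AZ2 had 103, 102 and 110.1 FPKM with IFN-beta, against 145, 148 and 147 FPKM in controls (log2 change -0.48, SE 0.0391, adjusted p = 2.41e-05, limma). Both H2A.Z genes, whose product replaces H2A at promoters, fell without overlap between groups. Together they held 57.1 ± 0.0416% of summed H2A FPKM with IFN-beta and 72.2 ± 1.02% in controls.

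H2AJ, an H2A variant gene noted in senescent fibroblasts, had 37.4, 37.0 and 41.3 FPKM with IFN-beta, against 30.8, 28.0 and 28.1 FPKM in controls, and rose (log2 change 0.41, SE 0.0585, adjusted p = 0.000662, limma). H2AX, which codes for the H2A phosphorylated at DNA breaks, had 96.3, 89.5 and 101 FPKM with IFN-beta, against 99.5, 97.1 and 98.7 FPKM in controls. These values overlap, and its log2 change of -0.04 (95% interval -0.15 to 0.07) did not pass and turned to 0.0029 when libraries were rescaled to the same sum. All variant H2A genes together made up 80.9 ± 0.576% of H2A FPKM with IFN-beta and 94.0 ± 0.133% in controls.

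**Figure D2:**
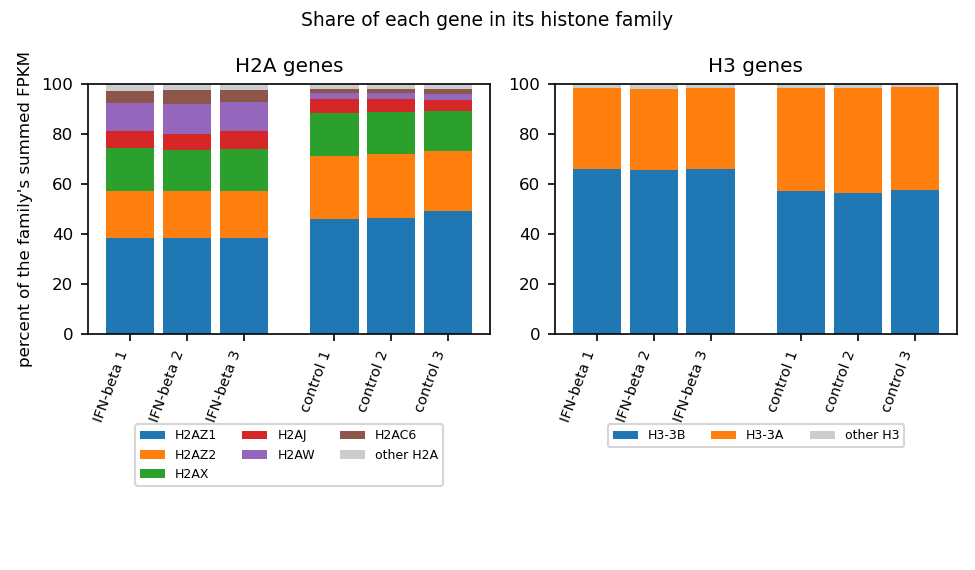
Percent of the summed FPKM of the H2A and H3 families (y axis, per panel) held by each named gene in each of the 3 IFN-beta and 3 control libraries (x axis). H2AW takes a larger and H2AZ1 and H2AZ2 a smaller part of H2A, and H3-3B a larger part of H3 in every IFN-beta library.

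H2B genes were the family with the most calls, with 11 of 14 tested replication-dependent genes higher and none called lower. This family also had the most tested genes. Of all tested genes 22.5% rose, and of the tested replication-dependent genes 64.7%. H2BC12 had the highest level of all replication-dependent genes, with 72.7, 69.6 and 76.2 FPKM with IFN-beta, against 39.0, 39.5 and 44.2 FPKM in controls. The groups lay apart, with a log2 change of 0.83 (SE 0.057, adjusted p = 8.01e-06, limma). Its model shares 74.1% of its 50-base stretches with other genes, most of all with H2BS1, which averaged 0.101 ± 0.0524 FPKM with IFN-beta and 0.123 ± 0.0790 FPKM in controls, so its level depends on how shared reads were assigned.

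H2BC5 was next by level, with 13.5, 14.8 and 14.7 FPKM with IFN-beta, against 10.7, 11.2 and 13.6 FPKM in controls. The lowest IFN-beta library lay just below the highest control library, and the log2 change was 0.27 (SE 0.0896, adjusted p = 0.0362, limma). H2BC11, whose promoter is printed above, had 17.6, 16.8 and 17.9 FPKM with IFN-beta, against 8.55, 7.29 and 7.07 FPKM in controls. It was higher in every IFN-beta library, by a log2 change of 1.14 (SE 0.0763, adjusted p = 6.47e-06, limma).

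Larger changes at low levels were seen in H2BC17 and H2BC18. H2BC17 had 2.41, 2.10 and 2.52 FPKM with IFN-beta, against 0.362, 0.428 and 0.995 FPKM in controls, on 26 to 36 reads with IFN-beta and 5 to 12 reads in controls (log2 change 1.42, SE 0.208, adjusted p = 0.00073, limma). H2BC18 had 2.47, 2.43 and 1.65 FPKM with IFN-beta, against 0.481, 0.802 and 0.720 FPKM in controls (log2 change 1.19, SE 0.176, adjusted p = 0.000735, limma). The groups overlapped in neither H2BC17 nor H2BC18. H2BC18 had 46 to 68 reads with IFN-beta and 13 to 22 reads in controls. Its model shares 25.7% of its 50-base stretches with other genes, most of all with H2BP1. Of its exonic bases, 5.54% are shared with FCGR1A on the opposite strand, and the part of those reads in H2BC18 was not tested. The other H2B genes called higher were H2BC4 (log2 change 1.13), H2BC8 (1.02), H2BC9 (0.67), H2BC7 (0.52) and H2BC21 (0.38). H2BC6, H2BC13 and H2BC15 did not pass, with log2 changes between -0.04 and 0.27. The only H2B variant matched, H2BE1 (chromosome 7, RefSeq symbol H2BK1), had at most 2 reads in any library.

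H3 RNA came almost wholly from the H3.3 genes H3-3A and H3-3B, which code for the same protein. Their log2 changes had opposite signs. H3-3B had 433, 438 and 455 FPKM with IFN-beta, against 339, 346 and 363 FPKM in controls (log2 change 0.34, SE 0.0394, adjusted p = 0.000187, limma). H3-3A had 213, 218 and 223 FPKM with IFN-beta, against 247, 261 and 261 FPKM in controls (log2 change -0.24, SE 0.0377, adjusted p = 0.00118, limma). In neither gene did the groups overlap.

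Summed, the H3.3 genes reached 660.1 ± 16.4 FPKM with IFN-beta and 606 ± 18.5 FPKM in controls, and H3-3B held 67.0 ± 0.183% of that sum with IFN-beta and 57.7 ± 0.555% in controls. H3-3A shares 11.7% of its 50-base stretches with other genes, most of all with the pseudogene H3P6. H3P6 itself averaged 149 ± 8.55 FPKM with IFN-beta and 177 ± 6.45 FPKM in controls (log2 change -0.25, adjusted p = 0.00345, limma), and how many of its reads belong to H3-3A was not tested. H3-5, another H3 variant gene, lay under the minimum with 0.420 ± 0.101 FPKM with IFN-beta and 0.419 ± 0.0578 FPKM in controls.

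Replication-dependent H3 genes were low, and variant genes held 98.5 ± 0.0564% of H3 FPKM with IFN-beta and 98.8 ± 0.0859% in controls. H3C10 had 3.03, 3.04 and 2.91 FPKM with IFN-beta, against 1.94, 2.80 and 2.25 FPKM in controls. Its groups did not overlap, yet the change of 0.31 (log2, SE 0.123) did not pass (adjusted p = 0.0696, limma). H3C8 had 2.65, 3.09 and 2.74 FPKM with IFN-beta, against 1.37, 1.44 and 1.78 FPKM in controls, and passed with a log2 change of 0.72 (SE 0.119, adjusted p = 0.00146, limma). H3C6 rose by 0.66 (log2), and H3C3, with a log2 change of 0.55, missed the threshold (adjusted p = 0.0525, limma).

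H4 has no variant gene among the members, and 3 of 7 tested H4 genes rose, against 22.5% of all tested genes. H4-16, which lies apart from the clusters on chromosome 12, had 5.67, 6.96 and 5.71 FPKM with IFN-beta, against 2.29, 2.13 and 2.12 FPKM in controls (log2 change 1.30, SE 0.1, adjusted p = 1.65e-05, limma). Every IFN-beta library was above every control library. H4C12 had 4.03, 2.92 and 3.12 FPKM with IFN-beta, against 3.15, 3.10 and 5.10 FPKM in controls, and these groups overlapped (log2 change -0.13, SE 0.182, adjusted p = 0.597, limma). Each 50-base stretch of its model is shared with another gene, H4C11 above all.

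H4C15 (log2 change 1.17) and H4C8 (0.80) rose too. H4C15 shares 97.2% of its stretches, mainly with its copy H4C14, and its values are uncertain for that reason. H4C15 averaged 1.45 ± 0.683 FPKM with IFN-beta (0.657 FPKM in IFN-beta 2) and 0.329 ± 0.107 FPKM in controls. H4C14, under the minimum, averaged 0.273 ± 0.0446 FPKM with IFN-beta and 0.259 ± 0.116 FPKM in controls. H4C3 had 0.737, 0.929 and 0.888 FPKM with IFN-beta, against 1.92, 0.576 and 2.29 FPKM in controls. Control 2 was the lowest library of all and the other controls the highest. The log2 change of -0.52 (adjusted p = 0.215, limma) became -0.95 without control 2 (adjusted p = 0.00277, limma).

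**Figure D3:**
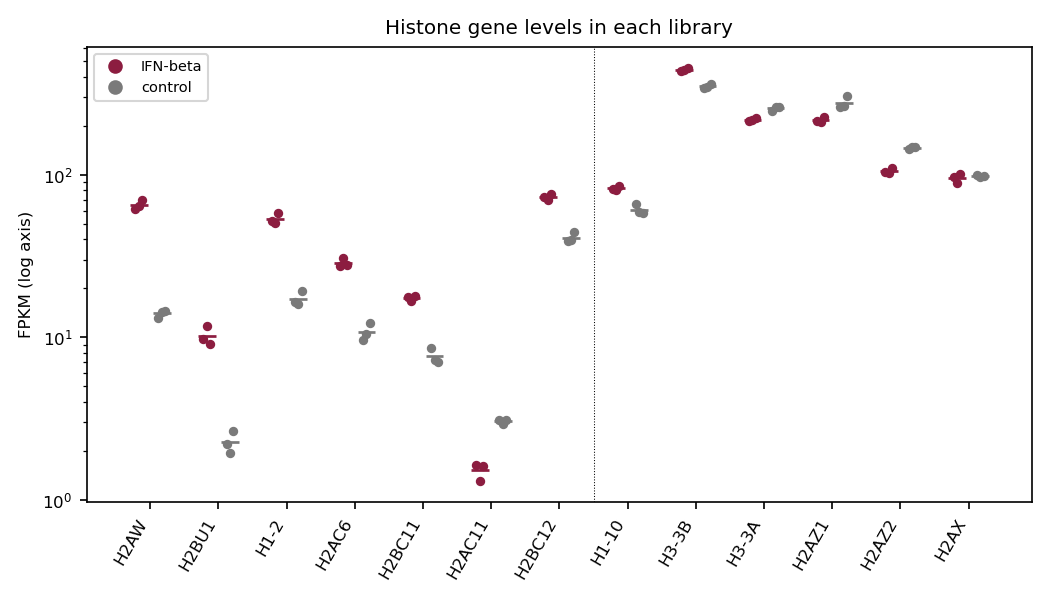
FPKM on a log axis (y axis) of 13 histone genes (x axis) in each library, with IFN-beta libraries as dark red and control libraries as grey points and group means as short lines. Genes left of the dotted line are replication-dependent, those right of it are variant; H2AW and H2BU1 show the widest gaps, and the groups overlap for H2AX.

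Summed, the replication-dependent members reached 329 ± 7.44 FPKM with IFN-beta and 147 ± 9.75 FPKM in controls, a ratio of 2.23. The 14 variant members reported here reached 1199.6 ± 37.8 FPKM with IFN-beta and 1218 ± 37.7 FPKM in controls, ranges that overlap, and the sign of this difference turned when libraries were rescaled to the same sum or control 3 was left out. The replication-dependent share of these sums was 21.5 ± 0.152% with IFN-beta and 10.8 ± 0.344% in controls, without overlap. Without control 3, the log2 ratio of the variant sums was 0.0037, against -0.022 with all libraries. A few genes carry these sums. H2BC12, H2AW, H1-2, H2AC6 and H2BC5, the 5 with the highest means, held 71.2 ± 1.55% of the replication-dependent sum with IFN-beta and 64.2 ± 1.42% in controls.

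By place, the large chromosome 6 cluster held 55 of the 71 replication-dependent members, of which 27 were tested, 15 rose and 1 fell. In the chromosome 1 cluster next to the centromere all 4 tested of 12 rose, and in the other chromosome 1 cluster, that of H2AW, both tested of 3 rose. Of all tested replication-dependent genes 64.7% rose, and of all tested genes 22.5%. Among the 4, the H2AC20 and H2BC21 calls ended when any of several single libraries was left out. All 11 tested replication-dependent genes that did not pass lay in the chromosome 6 cluster, which held 27 of the 34 tested. Its tested genes had a median log2 change of 0.55. Nothing particular to a place was read from these counts.

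Head-to-head pairs were compared next. Of 11 H2A and H2B pairs with under 500 bases between their starts, 7 had both genes tested. In 4 of them both genes rose: H2AW and H2BU1, H2AC6 and H2BC4, H2AC8 and H2BC8, and H2AC20 and H2BC21. Among all tested replication-dependent genes 64.7% rose, and nothing particular to the pairs was read from these counts. The H2AC20 and H2BC21 calls both ended with quantile normalization and when single libraries were left out. In 2 pairs neither gene was called. H2AC11 and H2BC11 had calls of opposite sign, with log2 changes of -0.82 and 1.14. Members of a pair share a promoter and are not independent of each other.

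**Figure D4:**
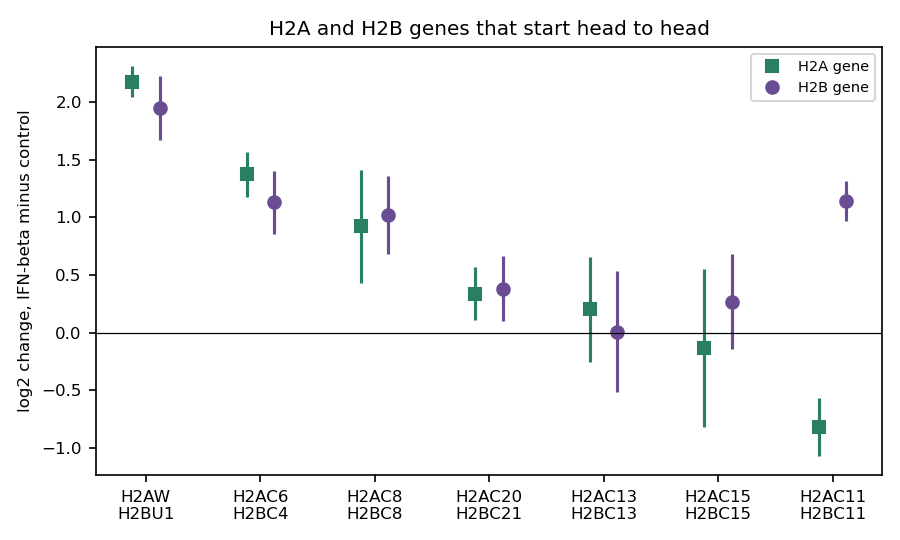
Log2 change (IFN-beta minus control, y axis) of the H2A gene (green squares) and the H2B gene (purple circles) in the 7 head-to-head pairs with both genes tested (x axis); lines are 95% confidence intervals. In 4 pairs both genes were called higher, and in the H2AC11 and H2BC11 pair the calls have opposite signs; the genes of the H2AC13 and H2AC15 pairs were not called.

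Members were also set apart by transcript models that run at least 100 bases past the stem-loop letters, 1 form that a polyadenylated histone transcript can take. Of 23 replication-dependent members with such a model, 19 were tested, 14 rose and 1 fell, with a median log2 change of 0.72. Of 48 without one, 15 were tested, 8 rose and none fell, with a median of 0.34. Some of the 48 could not be judged. The models of H1-2, H2BC12 and H2BC17, for example, hold no stem-loop letters to measure from, and H3C3 had no model. H2BC11 and H2BC5 are also among the 48, though each has a model with a poly(A) signal near its end. The 2 sets therefore do not separate genes with polyadenylated transcripts from genes without them. The share of members that reached the test also differed, so the medians rest on unlike parts of each set. Beside these counts, 64.7% of all tested replication-dependent genes rose, and 22.5% of all tested genes rose and 19.9% fell. The difference between the 2 sets was not tested.

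Promoter letters were counted in the RefSeq windows of 65 replication-dependent and 13 variant members. CCAAT was in 86.2% of replication-dependent and 92.3% of variant windows, against 34.6% of all 35116 windows in the table. TATAAA was in 66.2% of replication-dependent and 30.8% of variant windows, against 11.5% of all. The interferon-response letters were in 6 replication-dependent windows (9.23%) and in no variant window, against 3.57% of all. The 6 were those of H2BC6, H2BC10, H2BC11, H3-2, H3C10 and H3C13, of which H2BC11 was called higher, H2BC6 and H3C10 did not pass and the others were not tested. The letters of the GAS motif bound by STAT dimers (TTC, 3 bases of any kind, GAA) were in 1 replication-dependent window (1.54%) and in no variant window, against 7.66% of all. No window of H2AW or H2BU1 held either of the interferon motifs.

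The 37 untested replication-dependent members were low: 5 had no read in any library, 18 had at most 3 reads in every library, and none had more than 24. In 4 of the 37 all IFN-beta values lay above all control values. In 2, H3C2 and H4C2, it was the reverse, on at most 9 reads in any library. Nothing was read from these counts. The 7 untested variant members, among them H1-7, H1-8 and H2AB1, which are known from germ cells, had at most 18 reads.

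The calls of 6 weakly changed members ended when any of several libraries was left out, while the direction of their changes stayed the same. H2AC14 (log2 change 0.47 to 0.67 in those fits) did not pass without IFN-beta 1 (adjusted p = 0.127), control 2 (0.117) or control 3 (0.0661, all limma). H2AC20 (0.29 to 0.33) did not pass without IFN-beta 2 (adjusted p = 0.0913), IFN-beta 3 (0.0704), control 2 (0.0688) or control 3 (0.0562, limma). H2BC21 (0.31 to 0.42) passed without IFN-beta 2 only, with adjusted p-values between 0.0531 (without control 1) and 0.122 (without IFN-beta 1) when IFN-beta 1, IFN-beta 3 or any control library was left out.

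H2BC5 (log2 change 0.21 to 0.25) did not pass without IFN-beta 2 (adjusted p = 0.105), IFN-beta 3 (0.101), control 1 (0.106) or control 2 (0.112, limma). H2BC7 (0.44 to 0.52) did not pass without IFN-beta 1 (adjusted p = 0.102), IFN-beta 2 (0.0843), control 2 (0.0719) or control 3 (0.0925, limma). H2BC9, at 5.83 FPKM in IFN-beta 2 and near 3 FPKM in the others, did not pass without IFN-beta 2 (log2 change 0.38, adjusted p = 0.0965), IFN-beta 3 (0.0512), control 1 (0.101) or control 2 (0.141, limma). In the other direction, H3C10 passed without control 2 (adjusted p = 0.0224), and H3C3 passed without IFN-beta 1 (0.0378) or control 1 (0.047, limma). The other 17 called replication-dependent genes and all 7 called variant genes passed in every one of these fits.

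Among genes that make and process replication-dependent histone mRNA, no called one changed by more than 0.34 on the log2 scale. Of 28 listed and tested, 7 rose, 4 fell and 17 did not pass, with a median log2 change of -0.01. These counts are near the 22.5% higher and 19.9% lower of all tested genes. SLBP, which binds the stem-loop, averaged 80.6 ± 0.940 FPKM with IFN-beta and 67.9 ± 3.67 FPKM in controls (log2 change 0.25, SE 0.045, adjusted p = 0.00228, limma). CCNE2, a cyclin that drives histone transcription through CDK2, rose by 0.31 (log2) and CASP8AP2, a histone locus body protein, by 0.26. LSM10, of the U7 particle that directs cleavage after the stem-loop, fell (log2 change -0.34), as did MIF4GD (-0.33), a partner of SLBP in translation. NPAT, the histone locus activator, did not pass, with a log2 change of 0.05 (adjusted p = 0.449, limma).

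Of 31 tested chaperones that carry and deposit histones, 9 were higher, 6 lower and 16 did not pass, shares near those of all tested genes (22.5% higher and 19.9% lower). The number called was 9 without IFN-beta 2 and 9 without IFN-beta 3. HIRA, which deposits H3.3 outside S phase, averaged 9.04 ± 0.443 FPKM with IFN-beta and 4.94 ± 0.402 FPKM in controls, the largest change on this list (log2 change 0.81, SE 0.0783, adjusted p = 6.54e-05, limma). HJURP, which deposits the centromeric H3 variant CENPA, fell (log2 change -0.34, adjusted p = 0.000185, limma). CENPA itself averaged 23.7 ± 1.55 FPKM with IFN-beta and 34.9 ± 0.884 FPKM in controls (log2 change -0.55, SE 0.0545, adjusted p = 7.64e-05, limma). SSRP1, of the FACT chaperone, and HAT1, which acetylates new H4, fell by 0.32 and by 0.33 on the log2 scale. Of the variants that the symbol rule leaves out, MACROH2A1 and MACROH2A2 did not pass, with log2 changes of -0.03 and -0.08.

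S phase genes moved in both directions. Of 40 listed and tested, 7 rose, 14 fell and 19 did not pass, where 22.5% of all tested genes rose and 19.9% fell. The median log2 change was -0.01. GINS4 (log2 change -0.62), MCM5 (-0.45) and MCM6 (-0.39), parts of the replicative helicase, fell. CDT1 (0.32), which loads that helicase, and RRM2 (0.31), a ribonucleotide reductase subunit, rose. PCNA, the polymerase clamp, averaged 371 ± 8.37 FPKM with IFN-beta and 361 ± 29.5 FPKM in controls and did not pass (adjusted p = 0.598, limma).

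**Figure D5:**
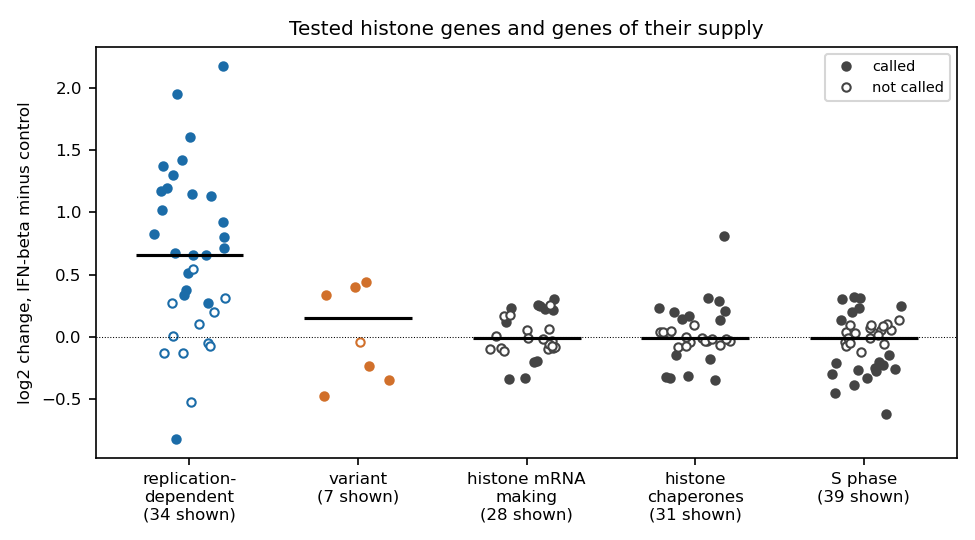
Log2 change (IFN-beta minus control, y axis) of tested replication-dependent and variant histone genes, of genes that make histone mRNA, of histone chaperones and of S phase genes (x axis). Each point is a gene (the number drawn is under each list), filled where it passed the test, and the lines are medians over all tested genes of a list; the replication-dependent median is 0.66 and those of the 3 other lists are each -0.01.

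The libraries held 25832158 to 30594527 reads. MX1, an interferon-induced antiviral gene, averaged 680.02 ± 15.7 FPKM with IFN-beta and 4.57 ± 0.204 FPKM in controls. Keratinocyte markers were high in all libraries. KRT5, a basal keratin, averaged 965 ± 14.8 FPKM with IFN-beta and 1374 ± 81.0 FPKM in controls and fell (log2 change -0.51, adjusted p = 6.04e-05, limma). Its partner KRT14 averaged 1099 ± 32.2 FPKM with IFN-beta and 1033 ± 42.8 FPKM in controls and did not pass. KRT17 (log2 change 0.37), TP63 (0.41), COL17A1 (0.53) and ITGB4 (0.22) rose. Markers of other cell types were low: summed fibroblast markers came to at most 3.13 FPKM with IFN-beta and 2.39 FPKM in controls, summed endothelial markers to between 2.12 and 2.21 FPKM with IFN-beta and between 0.696 and 0.964 FPKM in controls, and summed leukocyte markers to at most 0.231 FPKM. Summed melanocyte markers came to between 1.44 and 1.87 FPKM with IFN-beta and between 1.41 and 1.43 FPKM in controls, and 2 of those 4 markers were at 0 in every library. What part other cells had in the histone values was not tested.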

How the data were processed

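The authors deposited 1 table of FPKM values for 60671 genes. Per the submitters' processing notes the genome was GRCm38 or mm10, both of mouse, but 60671 identifiers are human, and 76.8% of the 58453 held by GENCODE release 29 have the same coordinates there, so GRCh38 was inferred. The labels' protocols name CLC Genomics Workbench 11.0.1 for no stated step, and both an RNeasy kit and TRIzol. No aligner or counter is named in the sources used here. FPKM as deposited by the authors were tested with limma 3.58.1 in R 4.3.3 (eBayes with a trend). Whole reads were recovered from the FPKM steps for 100% of the 30507 genes above 0, within 0.01 reads, and totals are 25832158 to 30594527 reads. For 33.4% of these genes the length came from GENCODE release 29. For the others it was the smallest length that gave whole reads, so their reads can be too low by a common factor. Recovered reads came to between 99.84% and 99.88% of the totals. A call made with limma voom on the recovered reads was an alternative.

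Shared 50-base stretches and stem-loops come from GENCODE release 29. A member and a listed gene are not reported here and are left out of sums and figures, but not of counts and medians. The members and lists were chosen with earlier results of these data known. Values in every library are given for H2AW, H2BU1, H2AC11, the up to 8 called members with the largest rise and with the largest fall, and the 2 highest genes of each family and class. Of the latter, H1-4 and H2BE1, under the minimum, are given by reads only. Each list is shown by up to 4 called genes by size of change. H2AJ, H2AX, H4C3 and H2BC11 also have values in every library and were chosen after their values were seen, as were H3C3, SLBP, NPAT, CDT1, RRM2 and the pseudogene and antisense neighbours. In a simulation of the comparison of IFN-beta with control (15163 genes), limma called 28% of the 50 that were altered 1.25-fold, 50% at 1.5-fold, 84% at 2-fold and 98% at 4-fold, with 5 unchanged genes called. Only 50 genes were altered at each fold there, while 42.4% of tested genes were called in the data. The adjusted threshold is then stricter in the simulation, and these shares need not hold for the data. Alternatives were pseudocounts of 0.1 and 1, other filters, rescaling, quantile normalization, size factors, other eBayes settings, a replicate block, a length correction and each library left out.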

Additional observations from a re-analysis of the deposited data

How the results depend on the processing

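The number of replication-dependent genes called stayed within 1.5 times of 23 under every alternative run, between 19 and 21 with 1 library left out, and all 7 variant calls held. Over the replication-dependent genes tested, the median log2 change of 0.66 was 0.88 with voom, 0.81 with a minimum mean of 2 FPKM, 0.17 with no filter, 0.84 and 0.49 with pseudocounts of 0.1 and 1, 0.54 with quantile normalization, 0.69 rescaled to the same sum (TPM), and 0.57 to 0.70 with 1 library left out. The variant median was 0.061 with no filter and 0.19 with TPM, and the log2 ratio of the summed FPKM of the 14 variant genes reported, -0.022, was 0.024 with TPM and -0.048 to 0.0037 with 1 library left out. The chaperone list had 9 calls without the eBayes trend, and 9 to 16 with 1 library left out. Among genes that did not pass, signs changed for H2AC15 (-0.32 to 0.21 with 1 library left out, among them 0.067), H2BC6 (-0.15 to 0.053), H4C12 (0.079), H2BC13 (-0.013 with voom, -0.023 with a pseudocount of 0.1, -0.11 with quantile normalization, -0.25 to -0.024 with 1 library left out), H4C9 (-0.0059, quantile), H4C4 (0.013 with voom, -0.40 to 0.19 with 1 library left out) and H2AX (0.0029 with TPM, -0.084 to 0.0041 with 1 library left out); the cause was not tested. Of all calls, 53.2% were higher, 63.2% with TPM and 41.3% with quantile normalization. Calls of H2AC14, H2AC20, H2BC5, H2BC7, H2BC9 and H2BC21 ended with quantile normalization. All of these but H2BC7 also ended with no filter, those of H2AC14, H2BC5 and H2BC9 without the eBayes trend, H2AC20 with voom (adjusted p = 0.186, limma), H2BC5 with size factors, H2BC9 with robust eBayes, and H2BC9 and H2BC21 with the length trend removed.

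Libraries share a replicate number, and the titles do not say whether same-numbered libraries were handled as pairs. Deviations of same-numbered libraries from their group means correlated at -0.052, -0.098 and -0.058. These values show no shared deviation by number, but how the libraries were handled cannot be told from them. With the number as a replicate block, 5817 genes were called against 6431, and 20 replication-dependent, 7 variant, 9 histone mRNA, 15 chaperone and 20 S phase genes; the H2AC20, H2BC7 and H2BC9 calls ended. Depth limits genes such as H2BC17, at 5 to 12 reads in controls. Of 26 tested replication-dependent genes with under 20% of 50-base stretches shared, a split chosen after seeing the data, 17 rose and 1 fell. Of all tested genes 22.5% rose and 19.9% fell.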
